A study of Rattus norvegicus with 15 samples.

Results

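The 9 genes described here encode feedback inhibitors of the mitogen-activated protein kinase (MAPK) pathways. They comprise 6 MAPK phosphatases (Dusp1, Dusp4, Dusp5, Dusp6, Dusp10 and Dusp16) and 3 Sprouty proteins (Spry1, Spry2 and Spry4), and they were chosen by name out of 37367 genes. The choice was made with earlier results of these data known. The 23 transcripts of these genes, out of 85322 in the table, were summed for each gene and library. All 9 sums had a mean of at least 0.5 FPKM (fragments per kilobase of transcript, scaled to the mapped fragments of the library), and were tested together with 17895 such genes in all.

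Messenger RNA was sequenced from primary brain microvascular endothelial cells (BMECs), cultured from the cerebral microvessels of Sprague Dawley rat littermates (written Spraque-Dawley in the labels) of both sexes, aged 2 to 3 weeks, with other cells reduced by differential adhesion. The 15 libraries fall into 5 groups of 3 biological replicates: unexposed control cells labelled as cultured for 12 h, cells collected 12 h after x-rays of 5 Gy or of 20 Gy, and cells collected 24 h after 5 Gy or 20 Gy. The control cells went through the same handling without the exposure, and all exposed groups were compared with the same 3 control libraries. No unexposed cells kept for 24 h were among these libraries, so time after exposure and time in culture cannot be told apart, and no source ties a library to an animal.

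The libraries held 5.44 to 7.49 gigabases of aligned sequence, as read from the steps between low FPKM values. The depth behind a member ranged from 26 reads of 150 bases for Spry1 in its lowest library to at least 7637 for Dusp1. Most endothelial markers did not match the label. Of 16 such genes, 14 were in the table and 5 passed the filter. Those 5 were Slc2a1 (23.6 FPKM on average in the control group), Flt1 (2.8 FPKM), Egfl7 (2.5 FPKM), Ocln (1.89 FPKM) and Kdr (0.81 FPKM). Cdh5, Cldn5, Tie1, Emcn and Vwf, which define endothelial cells, lay at or near 0 (at most 0.275 FPKM in any library). The collagen genes and other fibroblast markers were abundant, with a summed level of 2229 to 2552 FPKM in the control group.

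MAPK pathways carry signals from growth factor receptors and from stress to the nucleus through phosphorylation of the kinases ERK, JNK and p38. MAPK phosphatases remove the activating phosphates from these kinases, and Sprouty proteins restrain the path from the receptors through Ras to ERK. Most of these genes are themselves transcribed in response to MAPK activity, so their transcripts are widely used as a readout of it, and in endothelial cells Sprouty proteins restrain the response to angiogenic growth factors.

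Promoters are shown for Dusp1, the member that rose most, Dusp5, which changed in opposite directions at the 2 times, Dusp6, the member with no call, and Spry2, whose reads were assigned to an upstream start. The RefSeq table of the rat build GRCr8 held promoters for 8 of the 9 members (not Dusp4), each of 300 bases, from 250 before to 50 after the start site. Capitals mark the motifs searched on both strands, and sequences run 5′ to 3′ on the strand of the gene. The positions are chr10:17184603-17184902 on the plus strand for Dusp1, chr1:262543524-262543823 plus for Dusp5, chr7:35979354-35979653 plus for Dusp6 and chr15:89111877-89112176 minus for the upstream start of Spry2.
Dusp1: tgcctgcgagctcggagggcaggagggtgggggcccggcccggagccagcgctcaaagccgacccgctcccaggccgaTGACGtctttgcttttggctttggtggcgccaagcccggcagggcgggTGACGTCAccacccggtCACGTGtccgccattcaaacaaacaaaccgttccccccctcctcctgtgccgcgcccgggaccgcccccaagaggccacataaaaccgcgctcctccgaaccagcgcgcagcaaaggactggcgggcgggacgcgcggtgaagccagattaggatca
Dusp5: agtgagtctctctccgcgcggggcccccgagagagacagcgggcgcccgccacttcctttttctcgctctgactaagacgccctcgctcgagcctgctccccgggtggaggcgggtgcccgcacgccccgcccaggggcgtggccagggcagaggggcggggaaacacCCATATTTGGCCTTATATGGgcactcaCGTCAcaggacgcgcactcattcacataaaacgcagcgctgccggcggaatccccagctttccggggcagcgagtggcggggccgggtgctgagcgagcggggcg
Dusp6: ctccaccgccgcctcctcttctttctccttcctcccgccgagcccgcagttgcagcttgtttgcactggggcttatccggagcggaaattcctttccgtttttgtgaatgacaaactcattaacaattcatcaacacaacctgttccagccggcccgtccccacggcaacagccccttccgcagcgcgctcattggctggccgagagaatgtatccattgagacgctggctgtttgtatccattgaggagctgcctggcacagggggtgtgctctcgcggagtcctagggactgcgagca
Spry2: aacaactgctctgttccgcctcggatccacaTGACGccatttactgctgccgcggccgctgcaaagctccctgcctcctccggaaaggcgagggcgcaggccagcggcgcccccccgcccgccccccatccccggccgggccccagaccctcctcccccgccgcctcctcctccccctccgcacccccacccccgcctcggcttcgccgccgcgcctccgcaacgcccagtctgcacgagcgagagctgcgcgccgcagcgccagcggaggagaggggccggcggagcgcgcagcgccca

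The cyclic AMP response element TGACGTCA, which binds CREB and related factors, was present in the Dusp1 window, beginning 124 bases before the start site, and in no other member's window. It was found in 1.83% of all 33469 promoters in the table. Its half-site TGACG, which lies inside the full element, occurred in the windows of Dusp1, Dusp5, Dusp16 and the upstream start of Spry2, and in 21.2% of all promoters. Dusp1 also held the E-box CACGTG (6.42% of all promoters). The Dusp5 window held a pair of adjacent CArG boxes, the element bound by serum response factor, with the letters CCATATTTGG and CCTTATATGG, beginning 82 and 72 bases before the start site. A CArG box was present in 1.64% of all promoters. The heat shock element GAANNTTC occurred in the Dusp16 window (8.59% of all promoters). The AP-1 site TGANTCA (7.33%), the ETS site CCGGAAGT (3.81%) and TATAAA (14.2%) occurred in no member's window. These matches describe the letters only, and binding was not measured.

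Across the 5 groups, 8 of the 9 genes had their highest mean 24 h after exposure, and Dusp6 had its highest mean 12 h after 20 Gy. The order of the levels, which FPKM allows because it is divided by transcript length, was led by Dusp1 in every group. In the control group, Dusp6 followed Dusp1, and Dusp5 and Spry2, whose ranges overlapped, came next. Dusp16 lay below them, and Spry1, Dusp4, Spry4 and Dusp10 held the lowest places, at 1.38 to 1.68 FPKM on average, with ranges that overlapped between neighbours. At 24 h, Spry2 stood second at both doses, and Spry1 and Spry4 held the lowest places, with overlapping ranges.

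**Figure D1:**
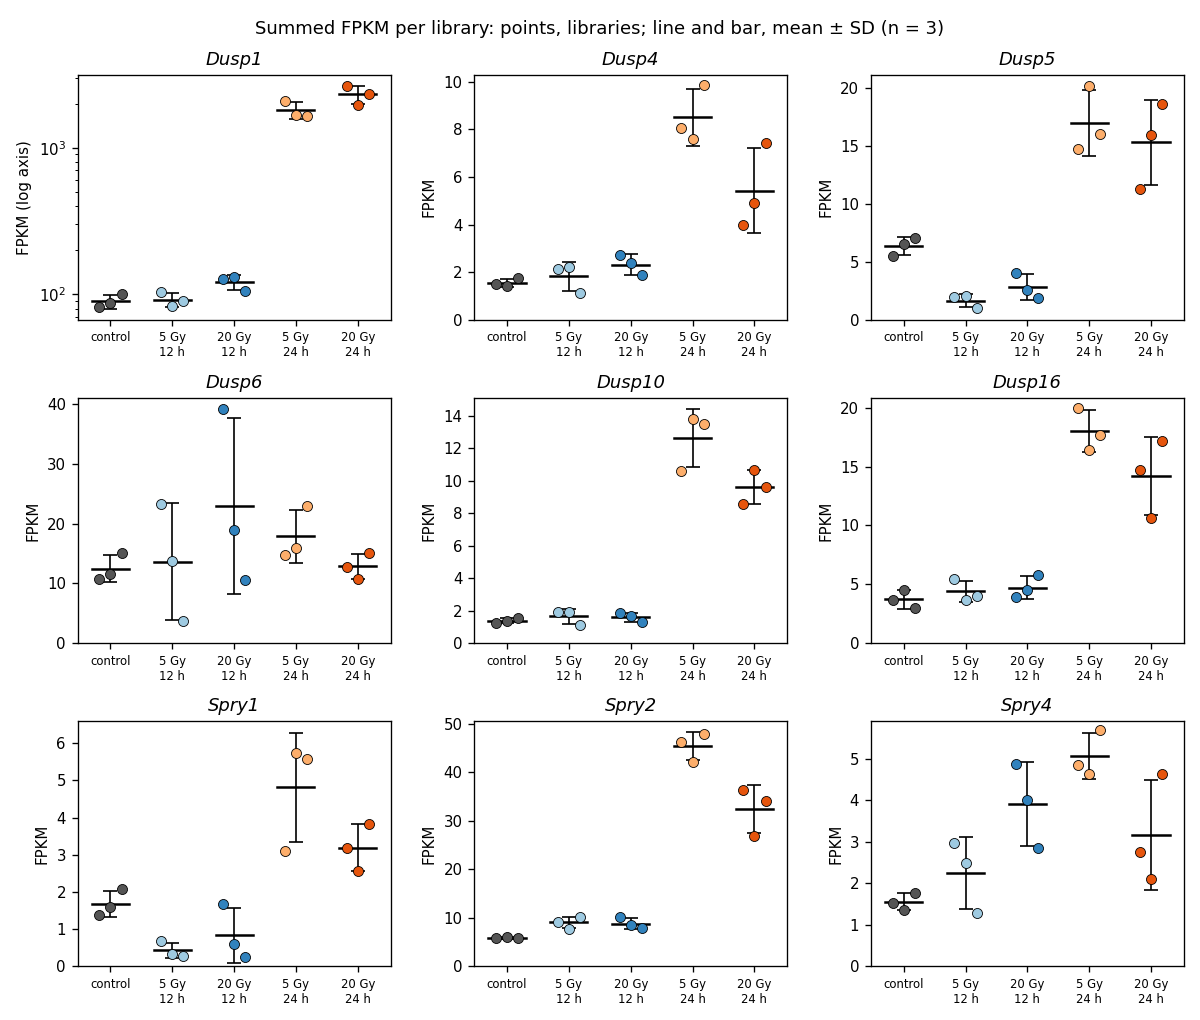
Summed FPKM of each member in the 15 libraries, in 5 groups of 3. Points are libraries, lines with bars are the mean ± SD, and the axis of Dusp1 is logarithmic while the others start at 0. The 24 h libraries of Dusp1, from 1655 to 2626 FPKM, lie above all others, and Dusp6 is most spread at 12 h.

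Dusp1 encodes an inducible nuclear phosphatase that acts on p38, JNK and ERK, and is an immediate early gene of stress and growth factor responses. Its level was 81.5, 87.2 and 101 FPKM in the control libraries. It was 104, 83.5 and 89.7 FPKM 12 h after 5 Gy, and 128, 131 and 105 FPKM 12 h after 20 Gy. The 5 Gy libraries overlapped the controls at 12 h, while the 20 Gy libraries lay just above them. At 24 h, it was 2070.2, 1661 and 1655 FPKM after 5 Gy and 2626, 1968 and 2325 FPKM after 20 Gy, so that every 24 h library lay far above every other library. The mean was 89.8 ± 9.81 FPKM (SD, n = 3) in the control group, 1796 ± 238 FPKM with 5 Gy and 2306 ± 329 FPKM with 20 Gy, 20.0 and 25.7 times the control mean. On the log2(FPKM + 1) scale, which was tested with limma with Benjamini-Hochberg adjustment over all genes, the differences were 4.30 ± 0.14 (SE, adjusted p = 1.96e-10) and 4.66 ± 0.14 (adjusted p = 1.13e-10). These ranked 20 and 18 from the top of the 17895 genes. By mean level, Dusp1 ranked 812 in the control group and 9 in both 24 h groups. At 12 h, the difference after 20 Gy was 0.43 (adjusted p = 0.0505) and was not called.

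The FPKM of Dusp1 were divided among 4 transcripts that cover the same stretch of Rnor_6.0, chr10:16970626-16973418 on the plus strand. The annotated transcript has 4 exons and 1936 bases, and 3 transcripts assembled from the reads have 2 or 3 exons and 2291 to 2569 bases. They span almost the same ends with fewer exons and more bases, so they hold sequence that the annotated transcript splices out. The table gives no exon positions. The annotated transcript held 25.1% to 29.6% of the summed FPKM in the control libraries and 31.8% to 37.5% 12 h after 5 Gy. In the 24 h libraries, it held 81.3% to 84.2% with 5 Gy and 69.3% to 81.6% with 20 Gy. The libraries 12 h after 20 Gy differed, with 23.0%, 75.7% and 23.3%, although their sums were close. From the control group to 24 h, the annotated transcript rose 61.1-fold after 5 Gy and 72.6-fold after 20 Gy by the ratio of means. The assembled ones together rose 4.64-fold and 8.16-fold. Reads were divided among overlapping transcripts by the assembler, so the shares are estimates, and a transcript on the opposite strand of Dusp1 (at most 5.53 FPKM) cannot be told apart without strand.

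**Figure D2:**
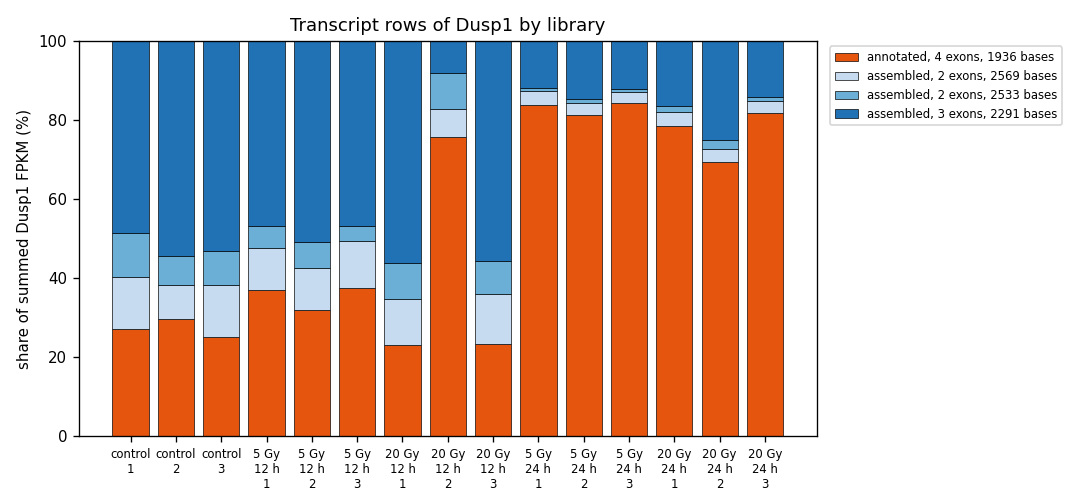
Share of the summed FPKM of Dusp1 (percent, vertical axis) in each of its 4 transcripts, for each of the 15 libraries, named by group and replicate. The annotated transcript (orange) holds 25.1% to 29.6% in the control libraries and 69.3% to 84.2% in the 24 h libraries, and 1 library 12 h after 20 Gy stands at 75.7%.

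Dusp4 encodes a nuclear phosphatase of ERK and JNK. Its level was 1.5, 1.43 and 1.76 FPKM in the control libraries, 2.15, 2.21 and 1.11 FPKM 12 h after 5 Gy, and 2.71, 2.37 and 1.86 FPKM 12 h after 20 Gy. It reached 8.07, 7.59 and 9.86 FPKM after 5 Gy and 3.98, 4.90 and 7.41 FPKM after 20 Gy at 24 h. All 24 h libraries lay above all control and 12 h libraries, and the 20 Gy libraries lay below the 5 Gy libraries at 24 h. Against the control group, Dusp4 was higher by 1.89 ± 0.20 (log2, SE, limma adjusted p = 5.04e-06) after 5 Gy and by 1.29 ± 0.20 (adjusted p = 0.000131) after 20 Gy. Its annotated transcript, at chr16:61078175-61091169 on the minus strand, held at least 97.1% of the sum in the control and 12 h libraries. At 24 h, the share ranged from 36.0% to 98.1%. With only the annotated transcript counted, the rise from 12 h to 24 h after 20 Gy was 0.71 and was not called (adjusted p = 0.0994).

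Dusp5 encodes a nuclear phosphatase specific for ERK, and its promoter, with the paired CArG boxes, is shown above. It has 1 transcript in the table, at chr1:274245184-274258595 on the plus strand. The control libraries held 5.53, 6.58 and 7.01 FPKM. At 12 h, the level was 1.93, 2.02 and 1.04 FPKM after 5 Gy and 4.05, 2.57 and 1.89 FPKM after 20 Gy, so that all 6 libraries lay below the controls. Its 24 h level was 14.7, 20.2 and 16.1 FPKM after 5 Gy and 11.3, 16.0 and 18.6 FPKM after 20 Gy, all above the controls. In log2 units, Dusp5 at 12 h fell by 1.49 ± 0.23 with 5 Gy (adjusted p = 0.000704 in limma) and by 0.98 ± 0.23 with 20 Gy (adjusted p = 0.0114). The second of these was not called without the third 20 Gy library (adjusted p = 0.0542). Dusp5 rose by 1.28 ± 0.23 at 24 h after 5 Gy (adjusted p = 0.000348) and by 1.12 ± 0.23 after 20 Gy (adjusted p = 0.000969). From 12 h to 24 h, the rise was 2.76 after 5 Gy (adjusted p = 6.80e-07) and 2.10 after 20 Gy (adjusted p = 7.36e-06), ratios of the means of 10.2 and 5.39.

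Dusp6 encodes a cytoplasmic phosphatase specific for ERK, and is the member most often taken as a reporter of ERK activity. The control libraries held 10.8, 11.5 and 15.1 FPKM. At 12 h, they held 23.4, 13.7 and 3.76 FPKM after 5 Gy and 39.3, 18.9 and 10.6 FPKM after 20 Gy. At 24 h, they held 14.7, 16.0 and 23.0 FPKM after 5 Gy and 12.7, 10.7 and 15 FPKM after 20 Gy. The exposed groups overlapped the controls in all 4 comparisons, and no difference was called. The coefficient of variation between libraries was 72.0% 12 h after 5 Gy and 64.3% 12 h after 20 Gy, and 16.8% to 24.8% in the other groups. The model shares its estimate of the spread over the 5 groups, so the 95% intervals of all Dusp6 differences were wide for this reason. At 24 h, they ran from -0.64 to 1.59 after 5 Gy and from -1.08 to 1.16 after 20 Gy on the log2 scale. These intervals include changes of the size seen in Dusp5, but their width stems largely from the 12 h libraries. The SD of log2(FPKM + 1) was 1.21 and 0.90 at 12 h after 5 Gy and 20 Gy. It was 0.24 in the control group and 0.32 and 0.23 at 24 h. The sum was divided between an annotated transcript of 3 exons and an assembled one of 2 exons at chr7:41475163-41479392, plus strand, and the annotated share ranged from 17.3% to 100% across the libraries.

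Dusp10 and Dusp16 encode phosphatases that prefer JNK and p38 over ERK. Dusp10, with 1 transcript at chr13:104284660-104321455 (plus strand), stood at 1.20, 1.38 and 1.55 FPKM in the control libraries. Its level was 1.91, 1.92 and 1.12 FPKM 12 h after 5 Gy and 1.82, 1.64 and 1.29 FPKM 12 h after 20 Gy, overlapping the controls. It reached 10.6, 13.8 and 13.5 FPKM 24 h after 5 Gy and 8.58, 10.7 and 9.61 FPKM 24 h after 20 Gy. No 24 h library overlapped with a control or 12 h library, and the differences from the control group were 2.51 ± 0.15 (limma adjusted p = 3.36e-08) and 2.16 ± 0.15 (adjusted p = 1.21e-07).

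Dusp16 stood at 3.64, 4.52 and 2.94 FPKM in the control libraries, 5.44, 3.69 and 4.01 FPKM 12 h after 5 Gy, and 3.88, 4.48 and 5.75 FPKM 12 h after 20 Gy. It reached 20.0, 16.4 and 17.7 FPKM 24 h after 5 Gy and 14.7, 10.6 and 17.2 FPKM 24 h after 20 Gy. Again the 24 h libraries lay above all others, by 2.03 ± 0.19 (limma adjusted p = 1.41e-06) and 1.68 ± 0.19 (adjusted p = 7.66e-06) on the log2 scale against the control group. The 4 transcripts of Dusp16 share their start on the minus strand of chromosome 4, and the annotated one held 60.9% to 68.4% of the sum in the control libraries and 61.2% to 67.7% at 24 h. The lowest share was 36.6%, 12 h after 5 Gy.

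Sprouty proteins are recruited to activated receptors and block Ras. Spry2, the most abundant of the 3, stood at 5.72, 6.01 and 5.79 FPKM in the control libraries. At 12 h, it was 9.21, 7.77 and 10.1 FPKM after 5 Gy and 10.1, 8.47 and 7.81 FPKM after 20 Gy, and all 6 libraries lay above the controls. The 24 h level was 46.2, 42.1 and 47.9 FPKM after 5 Gy and 36.3, 26.9 and 34.0 FPKM after 20 Gy. The increase at 12 h was 0.54 ± 0.12 after 5 Gy (limma adjusted p = 0.00818) and 0.51 ± 0.12 after 20 Gy (adjusted p = 0.0134), under the 1.5-fold limit of a call on this scale. The ratios of the means, without the added 1 FPKM, were 1.54 and 1.504. When all libraries were brought to 1 total (TPM), the increase passed this limit at both doses (0.63 and 0.59). After 5 Gy, it also passed with 0.1 added in place of 1 (0.61), with the highest transcript alone (0.61) and without the second 5 Gy library (0.64). At 24 h, Spry2 rose by 2.76 ± 0.12 after 5 Gy (adjusted p = 3.41e-09) and by 2.28 ± 0.12 after 20 Gy (adjusted p = 1.61e-08).

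At least 90.5% of the Spry2 sum lay in an assembled transcript in every library. This transcript, at chr15:90172938-90177848 on the minus strand of Rnor_6.0, starts 2046 bases upstream of the annotated one, at chr15:90172975-90175802. RefSeq lists a pair of starts for Spry2 on GRCr8, 2084 bases apart, and the window printed above is that of the upstream start. The builds were not converted into each other.

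Spry1 stood at 1.39, 1.59 and 2.07 FPKM in the control libraries. At 12 h, it was 0.666, 0.334 and 0.271 FPKM after 5 Gy, all below the controls, and 1.67, 0.591 and 0.247 FPKM after 20 Gy, of which the first overlapped them. It was 3.11, 5.75 and 5.57 FPKM after 5 Gy and 3.19, 2.56 and 3.84 FPKM after 20 Gy at 24 h, all above the controls. In log2 units, Spry1 fell by 0.92 ± 0.26 at the earlier time with 5 Gy (adjusted p = 0.0282 in limma), but the call was lost without any 1 of 4 libraries. These were the second or the third control library (adjusted p = 0.0662 and 0.102) and the second or the third 5 Gy library (adjusted p = 0.0797 and 0.0934). The sum of Spry1 was divided unevenly among its transcripts. In the control libraries, all of it lay in assembled transcripts, with 24.1% to 40.8% in 1 of 325 bases. That transcript was 0 in all libraries 12 h after 5 Gy, where the annotated share was 0%, 100% and 100%. The part of this division in the fall was not tested. Spry1 rose by 1.09 ± 0.26 at 24 h after 5 Gy (limma adjusted p = 0.00314). The difference of 0.64 ± 0.26 at 24 h after 20 Gy was not called (adjusted p = 0.0515). It passed without the second 20 Gy library (adjusted p = 0.0471) and after quantile normalization (adjusted p = 0.0178). At the levels of Spry1, the lowest member at 12 h, the added 1 FPKM makes the log2 differences smaller than the ratios of the means, which were 0.252 at 12 h and 2.86 at 24 h after 5 Gy.

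Spry4, with 1 transcript at chr18:32594958-32609864 (plus strand), stood at 1.52, 1.36 and 1.77 FPKM in the control libraries. At 12 h, it was 2.96, 2.48 and 1.29 FPKM after 5 Gy, overlapping the controls, and 4.88, 4.00 and 2.86 FPKM after 20 Gy, above them. At 24 h, it was 4.86, 4.63 and 5.69 FPKM after 5 Gy and 2.75, 2.10 and 4.64 FPKM after 20 Gy. It was the only member called higher at 12 h, by 0.93 ± 0.24 after 20 Gy (limma adjusted p = 0.0187). Without the second control library, or without the first or the second 20 Gy library, this was not called (adjusted p = 0.0655, 0.0707 and 0.0561). It was higher by 1.25 ± 0.24 at 24 h after 5 Gy (adjusted p = 0.000592) and by 0.66 ± 0.24 after 20 Gy (adjusted p = 0.0293). The second of these was lost without the first or the second control library (adjusted p = 0.0643 and 0.0812), and without the third 20 Gy library (0.42, adjusted p = 0.137). From 12 h to 24 h, Spry4 rose by 0.94 after 5 Gy (adjusted p = 0.00497), while after 20 Gy the difference was -0.26 (adjusted p = 0.371).

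**Figure D3:**
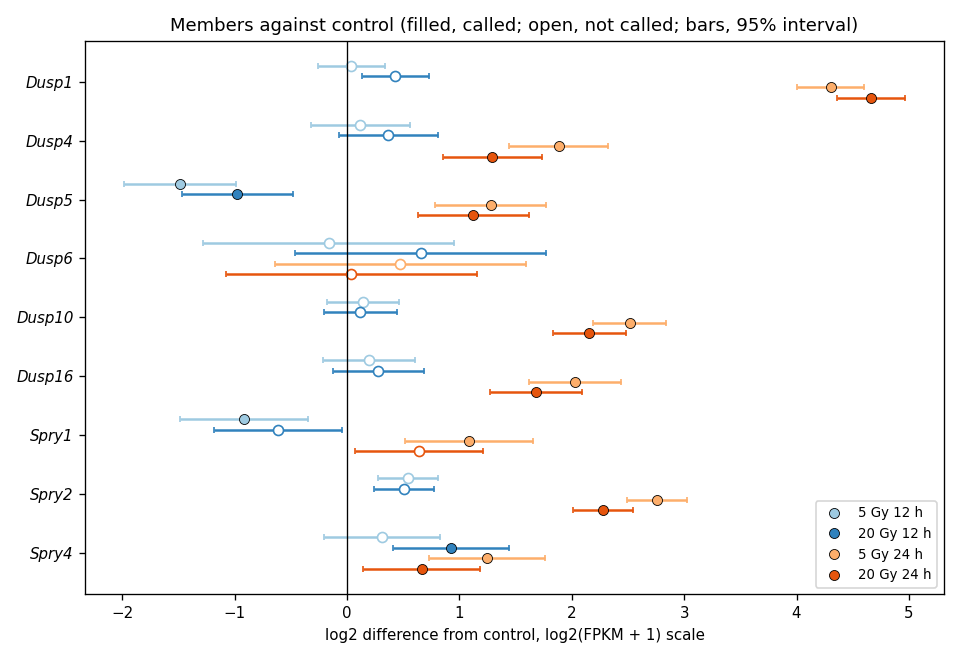
Difference of each member from the control group on the log2(FPKM + 1) scale (horizontal axis), with 95% intervals from limma. Filled points were called and open points were not. At 24 h, 8 members after 5 Gy and 7 after 20 Gy lie to the right and were called. At 12 h, Dusp5 (both doses) and Spry1 (5 Gy) were called to the left and Spry4 (20 Gy) to the right.

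Counted together, with a call set at 1.5-fold and an adjusted p below 0.05, few members were called at 12 h. After 5 Gy, 0 of 9 were higher and 2 were lower (Dusp5 and Spry1), where 4.98% of all genes tested were called higher and 4.96% lower. Of the 7 others, 1 (Spry2) had an adjusted p under 0.05. After 20 Gy, 1 was higher (Spry4) and 1 was lower (Dusp5), where 4.90% of all genes were called higher and 3.64% lower. At 24 h, 8 of 9 were higher after 5 Gy, against 20.5% of all genes, and 7 of 9 after 20 Gy, against 17.0%. None was called lower, where 20.8% of all genes were after 5 Gy and 23.3% after 20 Gy. The median difference of the 9 was 1.89 after 5 Gy and 1.29 after 20 Gy, where the median of all genes was -0.05 and -0.14. From 12 h to 24 h, 8 of 9 were called higher after 5 Gy, against 17.1% of all genes, and 7 of 9 after 20 Gy, against 14.1%. The median differences were 2.00 and 1.40. The comparisons with the control group share its 3 libraries, and those between times share the 24 h libraries with them. Because the members were chosen with earlier results known, their counts beside the shares of all genes are a description and not a test.

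The culture also changed in the markers of other cell types, and part of the change was present at 12 h. The summed level of the 8 fibroblast markers was 2229 to 2552 FPKM in the control libraries. It was 2087 to 2166 and 1733 to 2053 FPKM 12 h after 5 Gy and 20 Gy, and 856 to 934 and 808 to 946 FPKM at 24 h. At 24 h, 5 of the 8 were called lower at both doses. The mean of Col1a1, a subunit of collagen, was 516 FPKM in the control group and 27 and 31.4 FPKM at 24 h. Pdgfra (52.1 FPKM in the control group, 60.8 and 51.6 FPKM at 24 h) and Fbln1 (502 FPKM, then 581 and 567 FPKM) were not called. The summed level of 9 pericyte and smooth muscle markers was 55.9 to 64.2 FPKM in the control libraries. It was 46.3 to 49.5 and 45.6 to 49.7 FPKM 12 h after 5 Gy and 20 Gy, and 26.1 to 30.1 and 17.0 to 23.9 FPKM at 24 h. Of the 5 tested, Pdgfrb and Cspg4 were called lower at both doses at 24 h. Myh11, a smooth muscle myosin at 0.061 FPKM in the control group, was called higher there, at 1.29 and 1.18 FPKM. The summed level of 6 astrocyte markers was 13.3 to 15.3 FPKM in the control libraries. It was 25.0 to 31.5 and 21.9 to 30.9 FPKM 12 h after 5 Gy and 20 Gy, and 21.9 to 27.3 and 20.0 to 33.5 FPKM at 24 h. At 24 h, Aldh1l1 was called higher and Slc1a2 lower at both doses. Most of the sum was Aldh1l1 (9.52 FPKM in the control group, 20.8 and 23.7 FPKM at 24 h). Gfap was at most 0.182 FPKM in any library and Aqp4 was 0 in all. S100b stood at 0.881 FPKM in the control group and at 0.571 and 0.341 FPKM at 24 h. No microglia or macrophage marker of 7 passed the filter. In bulk samples, fewer cells of a type and less RNA per cell cannot be told apart, and the part of these changes in the members' levels was not tested.

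The doses were compared directly within each time. At 12 h, 0 of 9 members differed between 20 Gy and 5 Gy (0.123% of all genes did). By unadjusted limma p under 0.05, 3 did, namely Dusp1, Dusp5 and Spry4, all higher after 20 Gy, where 7.12% of all genes did. At 24 h, 0 of 9 were called (2.42% of all genes), though 8 of 9 lay lower after 20 Gy than after 5 Gy and Dusp1 lay higher. By unadjusted p under 0.05, 5 differed (Dusp1, Dusp4, Dusp10, Spry2 and Spry4), where 20.0% of all genes did. The median difference was -0.44, where that of all genes was -0.07 and 63.0% of all genes lay below 0. The count of 8 and its direction were unchanged after quantile normalization and after scaling to 1 total (TPM), which moved the median of all genes to -0.01 and -0.14. Spry2 came closest, lower by 0.48 ± 0.12 (adjusted p = 0.0445), under the fold limit. Dusp4 was lower by 0.59 ± 0.20 (adjusted p = 0.123), and without the third 20 Gy library it was called (adjusted p = 0.0335). Dusp1 was higher by 0.36 (95% interval 0.06 to 0.66, adjusted p = 0.168).

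The change from 12 h to 24 h was then compared between the doses, and 0 of 9 members were called (0.520% of all genes). By unadjusted p under 0.05, 3 were different (Dusp4, Spry2 and Spry4), as were 12.9% of all genes. Dusp4 and Spry2 rose less after 20 Gy, and Spry4 was called higher over time after 5 Gy alone. Spry4 had the lowest p of the 9, with a change that was smaller by 1.20 ± 0.34 after 20 Gy (adjusted p = 0.143). Without the third 24 h library after 20 Gy, it was called (adjusted p = 0.0452).

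In some groups, many members were lowest or highest in the same library. Of the 9 members, 6 were lowest in the third library of 5 Gy at 12 h and 8 in the third library of 20 Gy at 12 h. In the first library of 20 Gy at 12 h, 7 were highest, and 7 were highest in the third control library. These libraries were picked for their high counts. At 24 h after 5 Gy, no library held over 4 of the lowest or of the highest values. All genes were not counted in this way, so a shift of whole libraries was not tested. Deviations from the group means of log2(FPKM + 1) over the 15 libraries correlated at r = 0.89 between Dusp4 and Spry4, 0.84 between Dusp6 and Spry4 and 0.82 between Dusp5 and Dusp10. In contrast, r was -0.26 between Dusp5 and Dusp16 and 0.09 between Dusp1 and Dusp4. The values of a library share its depth and its culture, and these r are given as a description.

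A list of 12 other output genes of ERK, of which 11 were tested, was examined in the same way. The genes named here were picked after their values were seen. Deviations of Etv4 and Etv5, ETS factors induced by ERK, correlated with those of Dusp6 at r = 0.87 and 0.91, and those of Fosl1, an AP-1 subunit, at 0.85. With those of Dusp5, r was 0.87, 0.85 and 0.87. Dusp4 (0.85, 0.90 and 0.88), Dusp10 (0.89, 0.79 and 0.86) and Spry4 (0.76, 0.865 and 0.82) were about as close. For Spry1, r was 0.65, 0.74 and 0.78. Some other pairs were not close, with 0.08 between Dusp1 and Etv4, -0.10 between Dusp16 and Etv4 and -0.13 between Spry2 and Etv4. The value was -0.06 between Dusp6 and Epha4 and -0.61 between Spry2 and Ier3. Etv4 was 24.3, 14.7 and 4.68 FPKM in the libraries 12 h after 5 Gy and 37.6, 24.4 and 14.3 FPKM 12 h after 20 Gy, in the same order as Dusp6. Ier3 was nearly level across these libraries, at 40.5, 39.9 and 39.4 FPKM after 5 Gy and 34.0, 42.2 and 40.7 FPKM after 20 Gy. The third library of 5 Gy at 12 h held 6.64 gigabases, within the range of the others. What set the order of these libraries was not tested.

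**Figure D4:**
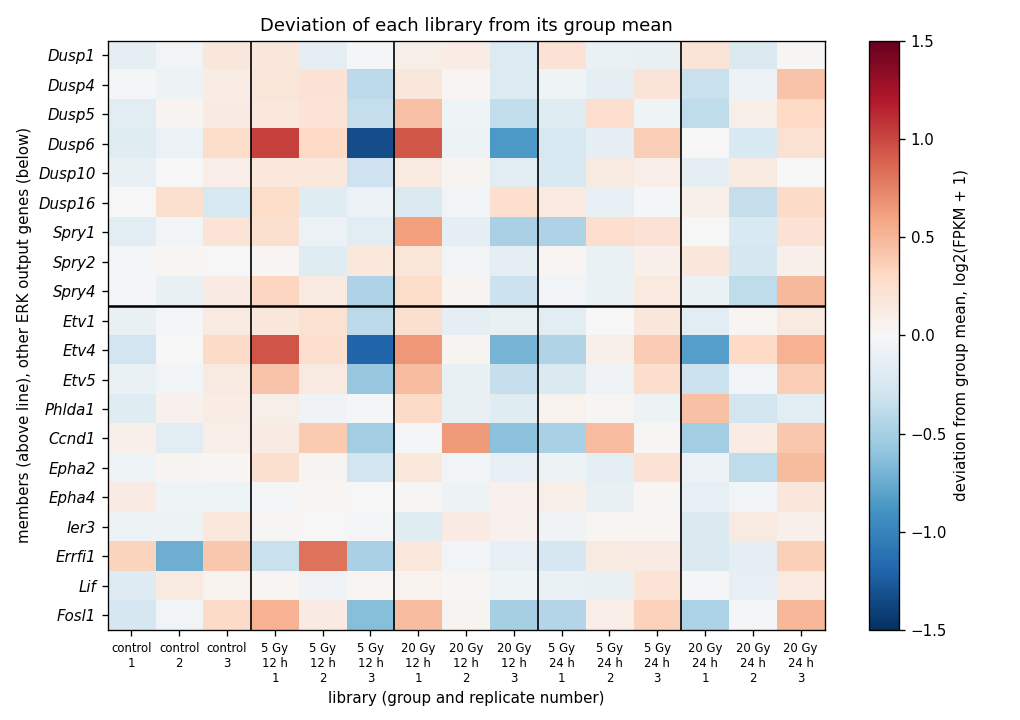
Deviation of each library from its group mean on the log2(FPKM + 1) scale (colour), for the 9 members above the line and the 11 other ERK output genes below it. Columns are the 15 libraries by group and replicate. Dusp6, Etv4, Etv5 and Fosl1 are high in the first and low in the third library of both 12 h groups after exposure, where Dusp6 deviates by 1.03 and -1.33 after 5 Gy.

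At 24 h, these ERK output genes changed in both directions. Against the control group, 4 of 11 were higher and 3 lower after 5 Gy, where 20.5% of all genes were higher and 20.8% lower. After 20 Gy, 3 were higher and 5 lower, where 17.0% of all genes were higher and 23.3% lower. Lif, a cytokine, rose from 0.506 ± 0.176 FPKM to 12.4 ± 1.66 FPKM after 5 Gy and 8.32 ± 0.874 FPKM after 20 Gy. The receptors Epha2 and Epha4 rose by 2.12 and 1.80 (log2) after 5 Gy. Ier3, an immediate early gene, fell by 2.01 and 2.31, and Fosl1 and Phlda1 fell by 1.39 and 0.95 after 5 Gy. The calls of Lif and Epha2 (higher) and of Ier3 and Phlda1 (lower) were already made at 12 h at both doses.

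Of the other MAPK phosphatases, 3 of 4 were tested. Dusp2, a nuclear phosphatase, fell from 9.39 ± 2.16 FPKM in the control group to 0.224 ± 0.227 FPKM and 0.688 ± 0.747 FPKM at 12 h after 5 Gy and 20 Gy, a log2 difference of -3.08 and -2.70. It was still lower at 24 h, at 1.33 and 1.11 FPKM (-2.14 and -2.30), where 8 and 7 of the members were higher. Dusp8, which prefers JNK and p38, rose at 24 h by 0.79 and 1.33. Dusp7 was called higher 24 h after 5 Gy (0.68, adjusted p = 0.00690 in limma), and its difference after 20 Gy was 0.00. Atypical dual-specificity phosphatases, which lack the kinase-binding domain of the MAPK phosphatases, were also tested at 24 h. Of 9 tested, 1 was higher and 4 were lower after 5 Gy, and 0 were higher and 4 lower after 20 Gy, where 20.8% and 23.3% of all genes were lower. The median was -0.26 and -0.46. Dusp14, Dusp18 and Dusp23 fell at both doses. Dusp3 and Dusp23 were higher at 12 h, Dusp3 at 5.73 FPKM in the control group and 12.99 and 16.8 FPKM.

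Spred proteins are relatives of the Sprouty proteins that also restrain Ras, by way of Nf1. Of the other Sprouty and Spred genes, 2 of 4 were tested. Spred1 rose from 7.37 ± 1.74 FPKM to 37.3 ± 3.82 FPKM 24 h after 5 Gy and 31.0 ± 11.2 FPKM after 20 Gy (log2 2.21 and 1.90, limma adjusted p = 1.44e-06 and 5.63e-06). Spred2 was not called against the control group, with 0.49 and 0.06 at 24 h.

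The kinases on which the members act were measured as well. Of 20 genes of the ERK cascade, 7 were higher 24 h after 5 Gy and 6 after 20 Gy (20.5% and 17.0% of all genes), and none was lower (20.8% and 23.3% of all genes). Sos1 and Gab1, which link receptors to Ras, rose by 1.69 and 1.42 after 5 Gy, and the scaffold Ksr1 by 1.02. The median over the 20 was 0.38 and 0.25. Of 18 genes of the p38 and JNK cascades, 10 were higher and 2 lower after 5 Gy, and 8 were higher and 3 lower after 20 Gy, beside the same shares of all genes. Map3k1, Map3k4 and Map2k3, upstream kinases of JNK and p38, rose by 1.91, 1.67 and 1.28 after 5 Gy, while Mapk11 and Mapk12, both p38 kinases, fell by 0.99 and 1.03. At 12 h, no gene of the p38 and JNK cascades was called in either direction at either dose. Transcript levels say nothing of phosphorylation, which was not measured.

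Upstream, 4 of 11 growth factor receptors were higher and 1 lower 24 h after 5 Gy, where 20.5% of all genes were higher and 20.8% lower. After 20 Gy, 3 were higher and 3 lower, which lie near the shares of all genes, 17.0% higher and 23.3% lower. Fgfr2, Egfr and Met rose at both doses, Egfr from 24.8 ± 3.82 FPKM to 56.7 ± 4.77 FPKM and 69.7 ± 10.1 FPKM. Pdgfrb fell by 1.25 and 1.85. Of 9 ligands tested from a list of 15, 4 were higher and 1 lower after 5 Gy, and 3 were higher and 2 lower after 20 Gy. The shares of all genes are those given for the receptors. Hbegf, a ligand of Egfr, rose from 4.79 ± 0.934 FPKM in the control group to 15.4 ± 0.680 FPKM after 5 Gy and 33.4 ± 1.41 FPKM after 20 Gy. Vegfc rose by 1.07 and 1.14, and Pdgfa fell by 1.07 and 0.96. Hbegf was the single ligand called between the doses at 24 h, in the direction opposite to that of 8 of the 9 members. At 12 h, it stood at 2.65 ± 0.108 FPKM after 5 Gy, where it was called lower, as Dusp5 and Spry1 were.

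For each member, the 2 genes with the most similar pattern over the 15 libraries were found among 12123 named genes with a mean of at least 1 FPKM, by Pearson's r of log2(FPKM + 1). Dusp1 was most like Ets2 (0.997) and Smad1 (0.995), Dusp4 like Deptor and Plekho1 (both 0.981), and Dusp5 like Rad51c (0.981) and Ifrd1 (0.979). Dusp10 was most like Has2 (0.992) and Zfp281 (0.990), Dusp16 like Camsap1 (0.986) and Med26 (0.986), Spry1 like Ifrd1 (0.974) and Foxn2 (0.961), and Spry2 like Akap10 and Msh6 (both 0.990). Dusp6 and Spry4, which moved less between the groups, had lower values, with Edem1 (0.875) and Pmaip1 (0.854) for Dusp6 and Slc36a4 (0.901) and AC098008.1 (0.884) for Spry4. Dusp5 and Spry1, both lower at 12 h and higher at 24 h after 5 Gy, share Ifrd1 among these genes. These r rest largely on the step between the 12 h and the 24 h libraries.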

How the data were processed

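Poly-A selected RNA of 15 BMEC cultures was sequenced. The authors trimmed the reads with Trimmomatic, mapped with HISAT2 to the rat build Rnor_6.0, used StringTie for assembly and deposited 1 table of FPKM per transcript, which is divided by transcript length and library size. How overlapping transcripts share reads depends on the assembler. The deposited table was used without rescaling. The FPKM of rows with a gene's name, and of assembled rows in a locus with that name alone, were summed per gene.

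Genes with a mean of at least 0.5 FPKM (17895) were tested on log2(FPKM + 1), with a pseudocount of 1, using limma 3.58.1 (R 4.3.3). Each group had its own mean, which left 10 residual degrees of freedom, and the variance followed a trend on level. Calls needed a two-sided Benjamini-Hochberg adjusted p under 0.05 over all these genes and a 1.5-fold difference. Low genes have their changes understated on this scale. An exact permutation test of 3 libraries against 3 cannot go below p = 0.1 and was not used. The p-values set each difference against the spread between these libraries, shared over the 5 groups and drawn toward the trend on level. The script was checked on simulated data.

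The members and gene lists were chosen with earlier results of these data known. All 9 members are named, with up to 3 genes per list and direction with the largest change among those called at both doses of a time, and the 2 genes most like each member. Other genes are named where a call stands alone or were picked after their values were seen. Tried as alternatives were adding 0.1 in place of 1, testing all genes or those averaging 1 FPKM or more, quantile normalization, scaling to 1 total (TPM), only the groups compared, no variance trend, the replicate number as a block, rows with the gene name only, the transcript with the highest mean, a fold change of at least 2, adjusted p alone, and each library left out. The deviations within groups, the transcript shares and the promoter motifs were examined after the values were seen. Promoters are from RefSeq (GRCr8).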

Additional observations from a re-analysis of the deposited data

Results flagged for a closer look

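The differences from the control group were unequal at 12 h and 24 h in limma, at an adjusted p under 0.05 and 1.5-fold, for 8 of the 9 members after 5 Gy and 7 after 20 Gy. The same held for 36.4% and 36.3% of all genes in either direction, with 17.1% and 14.1% higher at 24 h. The control libraries are the same at both times, so each value is the 24 h minus the 12 h level of the exposed libraries, and time after exposure and time in culture cannot be told apart. The 24 h value exceeded the 12 h value after 5 Gy by 4.27 (log2) for Dusp1, 2.76 for Dusp5, 2.37 for Dusp10, 2.22 for Spry2, 2.00 for Spry1, 1.83 for Dusp16, 1.77 for Dusp4 and 0.94 for Spry4. After 20 Gy, the differences were 4.23 for Dusp1, 2.10 for Dusp5, 2.04 for Dusp10, 1.77 for Spry2, 1.40 for Dusp16, 1.26 for Spry1 and 0.93 for Dusp4. For Dusp5 and Spry1 at both doses, the 2 differences from the control group had opposite signs, of which those of Spry1 after 20 Gy were not called. Groups of 3 libraries are too small for the search for outlying libraries.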

How the results depend on the processing

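The 24 h calls of the members rested on few choices. The members called 24 h after 5 Gy stayed at 8 without any 1 library, and those from 12 h to 24 h at 8 and 7. After 20 Gy at 24 h, leaving out 1 library gave 6 to 8. The call of Spry4 there was also lost at a fold change of at least 2. It was lost too with the transcript with the highest mean (limma adjusted p = 0.0512). The 12 h calls were less stable. With a fold change of at least 2, 1 member was called 12 h after 5 Gy and 0 after 20 Gy, in place of 2 and 2, and leaving out 1 library gave 1 to 2 in both. With rows that carry the gene name only, Spry1 and Spry2 fell below the filter, so neither could be called at 24 h. In this setting, 1 member was called 12 h after 5 Gy and 4 in place of 7 from 12 h to 24 h after 20 Gy. Between the doses at 24 h, adjusted p alone gave 1 in place of 0 (Spry2). Leaving out 1 library gave 0 to 1 there (Dusp4) and 0 to 1 for the change over time compared between the doses (Spry4), both without the third 24 h library after 20 Gy. No value of a member that was called changed its sign, and 25 of 1494 values, none of them called, did. Of the members' differences, 935 kept their side of the threshold under the other settings, 10 passed it and 9 lost it. With 1 library left out, these were 524, 5 and 11.

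The correlation of deviations between same-numbered libraries was over 0.1 in 4 of 30 pairs and ranged from -0.18 to 0.23. Between the doses at 1 time, all 6 were above 0 and 5 were higher than with any other number, but no 2 groups had all pairs over 0.1, so the numbers were not taken to pair the libraries. With the replicate block, the members called were 2 and 2 at 12 h, 8 and 7 at 24 h, 8 and 7 between times and 0 in the comparisons of doses, as without it. The block gives each replicate number the same effect in all 5 groups. It therefore cannot address a pairing of the doses within a time alone, which was not tested.

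Counts over all genes moved by over 1.5 times mainly with the threshold. At a fold change of at least 2, they were 588 in place of 1779 and 433 in place of 1528 at 12 h, 3584 in place of 7395 and 3444 in place of 7219 at 24 h, and 2834 in place of 6508 and 2817 in place of 6489 between times. With adjusted p alone, they were 3385 and 3055 at 12 h and 9774 and 9816 between times. The counts between doses ranged from 2 to 45 in place of 22 at 12 h and from 37 to 790 in place of 433 at 24 h, and that of the change over time from 44 to 229 in place of 93. Of the genes called between doses at 24 h, 39.5% were higher after 20 Gy, and 55.9% with quantile normalization and 27.6% with scaling to 1 total (TPM). For the change over time, these shares were 47.3%, 60.5% and 30.4%.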
